A study of Mus musculus with 3 samples.

Results

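The 6 genes described here, Orm1, Hp, Lrg1, Saa3, Pglyrp1 and Bst1, encode proteins that myeloid cells make and that are mostly known from the acute phase response. They were picked by name, with their levels on these arrays already known, and are 6 of 18193 genes with a probe set of their own. All their probe sets that the platform annotation pairs with 1 gene symbol were used, 7 in number, since Bst1 had a brighter and a dimmer one. Each was read on 3 arrays, one per genotype: transgenic Line 6, transgenic Line 3 and wild type. Both lines carry the allele labelled Tg(Ly6a-KDM1A*v2 and are on the C57BL/6J strain, as is wild type, and the mice were 10 weeks old. The construct is named for Ly6a, the gene of the surface antigen Sca-1, and KDM1A, the gene of the histone demethylase LSD1. The RNA came from bone marrow cells positive for Sca-1 and free of lineage markers. How many mice were pooled for each array, and their sex, is not stated in the labels.

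The acute phase response is the shift in plasma proteins that follows infection or injury, driven by interleukins 1 and 6 and by tumour necrosis factor. The liver makes most of these proteins, but neutrophil precursors and macrophages make several of them too and store some in granules. Orm1 encodes alpha-1-acid glycoprotein, a plasma carrier of small molecules. Hp encodes haptoglobin, which binds free haemoglobin so that macrophages can clear it through the receptor CD163. Lrg1 encodes a leucine-rich glycoprotein found in neutrophil granules that alters TGF-beta signalling in endothelium. Saa3 encodes a mouse serum amyloid A made mostly outside the liver. Pglyrp1 encodes an antibacterial protein of neutrophil granules that binds peptidoglycan. Bst1 encodes CD157, a surface enzyme that acts on NAD, known on neutrophils, monocytes, marrow stroma and early B cells. Bst1 is not a classical acute phase gene, and Pglyrp1 is better known as a granule gene, so the label fits them only in that myeloid cells make them.

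Promoter sequences were at hand for 3 of the 6 genes, from RefSeq on GRCm38.p6, and all 3 are shown. Lrg1 and Pglyrp1 read below wild type in both lines, while the Saa3 values could not be told from background. Each run is the 250 bases before the gene start, 5′ to 3′ on the gene's strand. Capitals mark matches on either strand to 4 short motifs. The motifs were TTNNGCAA for C/EBP factors, TTCNNNGAA for STAT factors, GAGGAA for PU.1 and, for NF-kB, GGG and CC set 5 bases apart. The windows are Lrg1 at chr17:56121947-56122196 on the minus strand, Pglyrp1 at chr7:18884440-18884689 on the plus strand and Saa3 at chr7:46715677-46715926 on the minus strand.
Lrg1: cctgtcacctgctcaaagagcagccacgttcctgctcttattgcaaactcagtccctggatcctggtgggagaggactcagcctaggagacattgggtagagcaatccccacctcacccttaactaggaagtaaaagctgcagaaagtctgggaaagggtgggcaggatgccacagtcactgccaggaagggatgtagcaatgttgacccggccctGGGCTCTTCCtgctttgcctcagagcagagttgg
Pglyrp1: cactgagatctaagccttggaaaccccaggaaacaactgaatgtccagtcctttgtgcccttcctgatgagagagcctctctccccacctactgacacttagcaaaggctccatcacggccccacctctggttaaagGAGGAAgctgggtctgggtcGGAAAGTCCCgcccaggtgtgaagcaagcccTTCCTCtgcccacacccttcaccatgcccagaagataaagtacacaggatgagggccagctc
Saa3: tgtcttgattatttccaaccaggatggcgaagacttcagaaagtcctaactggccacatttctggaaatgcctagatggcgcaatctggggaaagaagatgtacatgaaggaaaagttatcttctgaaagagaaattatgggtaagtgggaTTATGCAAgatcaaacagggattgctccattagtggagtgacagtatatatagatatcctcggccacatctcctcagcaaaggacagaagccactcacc
The Lrg1 window held 1 match, to the NF-kB motif, which starts 34 bases before the gene start. The Pglyrp1 window held 1 NF-kB match, 93 bases before the start, and 2 matches to the PU.1 motif, 113 and 62 bases before it. The Saa3 window held 1 match, to the C/EBP motif, 99 bases before the start. None of these matches overlapped another. Over 32851 promoter windows of the same length, 45.8% held the NF-kB motif, 23.3% the PU.1 motif, 9.56% the C/EBP motif and 7.02% the STAT motif. The matches describe the letters of these windows and are not measured binding sites.

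The arrays were first set against their labels. Kdm1a read 2575 in Line 6 and 2979 in Line 3, against 2104 in wild type, on its brightest probe set, and the labels do not say whether it also detects transgene RNA. Ly6a itself had no probe set paired with its symbol alone, and probe sets with several symbols were not read. Of 16 stem and progenitor markers, 14 passed the filter on dim values, as did 10864 of all 18193 genes. Among the 14 were Kit (899 in Line 6, 923 in Line 3 and 603 in wild type) and Cd34 (1838, 2315 and 971 in the same order). Myeloid genes were also bright, with S100a8 at 22487 in Line 6, 18745 in Line 3 and 25535 in wild type. Xist, made from the inactive X chromosome, read 6152 in Line 6, 5155 in Line 3 and 2729 in wild type. The Y-linked gene Eif2s3y read 978, 1031 and 2325 in that order. The part of these differences in the results below was not tested.

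All 6 genes had lower intensities in both transgenic lines than in wild type. Orm1, Lrg1 and Bst1 differed most, Hp by little more than 2-fold, Pglyrp1 passed 2-fold only in Line 3, and Saa3 was dim on every array. Over all genes that passed a filter on dim values, 30.6% read lower in both lines. Differences are transgenic line minus wild type on the log2(intensity + 16) scale, and a gene was counted as lower at 2-fold or more. By this count 4 of the 6 were lower in Line 6, where 2.41% of the 10864 genes that passed the filter were. In Line 3, 5 of the 6 were lower, against 4.46% of all genes. In both lines 4 of the 6 were lower, against 2.07% of all genes. The genes were chosen with these differences known, so nothing is read from these counts. The filter kept a gene whose intensity reached the array's median on at least 1 array, and 5 of the 6 passed it, each on all 3 arrays. Because every genotype has a single array, no difference has a replicate error and none was tested. Both lines are set against the same wild type array and share its chance values.

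**Figure D1:**
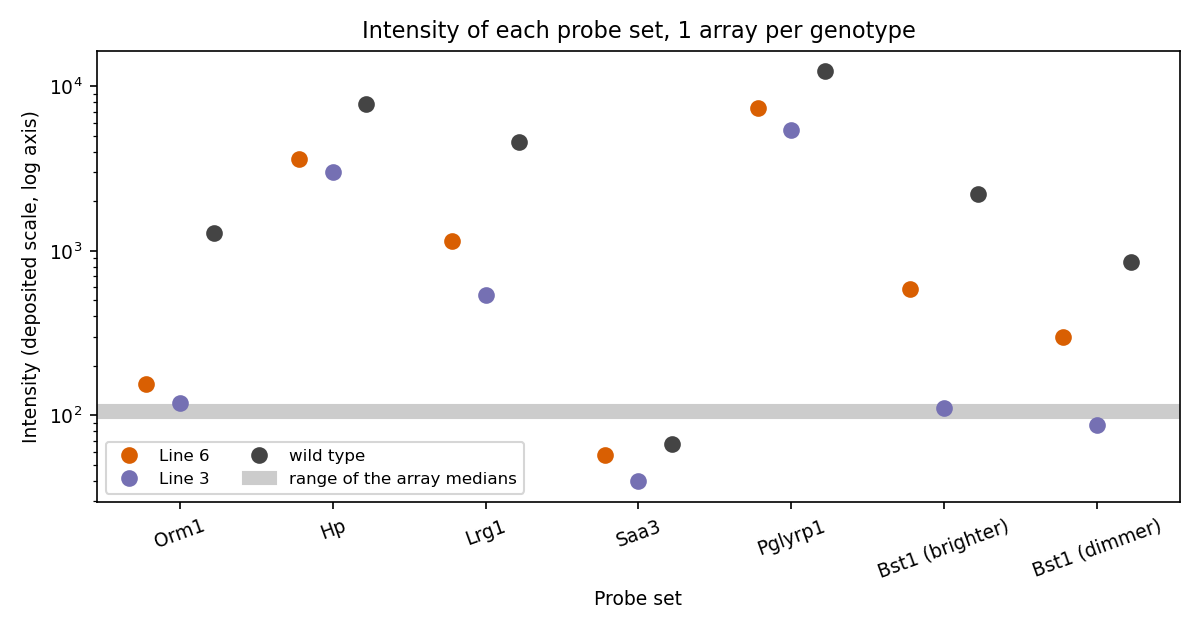
Intensity on the deposited scale (vertical, log axis) of the 7 probe sets (horizontal) on the arrays of Line 6, Line 3 and wild type, 1 point per array; the grey band is the range of the array medians. On every probe set Line 3 lies lowest and wild type highest, from Saa3 at 39.7 to 66.7 up to Pglyrp1 at 5467 to 12373.

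Orm1 read 155 in Line 6 and 119 in Line 3, against 1292 in wild type. The lines therefore held 12.0% and 9.18% of the wild type intensity. Both lay close to the array medians of 116 and 99.0, while wild type lay far above its median of 96.2. The differences were -2.94 in Line 6 and -3.28 in Line 3, at ranks 5 and 11 from the lowest among 10864 genes. Orm1 lies beside Orm2 and Orm3, close relatives of the same family, and the single Orm1 probe set may also bind their transcripts. Orm2 read 193 in Line 6, 135 in Line 3 and 266 in wild type, differences of -0.43 and -0.90. Orm3 was below the median of all 3 arrays, at 30.3, 21.1 and 32.1.

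Hp read 3624 in Line 6 and 3033 in Line 3, against 7797 in wild type. The lines were close to each other and at 46.5% and 38.9% of wild type. The differences were -1.10 in Line 6 and -1.36 in Line 3, 2.15-fold and 2.56-fold lower. Hp kept a bright signal in both lines. Cd163, the macrophage receptor for haptoglobin bound to haemoglobin, went the other way, at 811 in Line 6 and 924 in Line 3, against 262 in wild type. Its differences were 1.57 in Line 6 and 1.76 in Line 3. Hmox1, which breaks down haem, read 1426, 1674 and 902 in Line 6, Line 3 and wild type, a difference under 2-fold in each line.

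Lrg1 read 1149 in Line 6 and 543 in Line 3, against 4621 in wild type. Line 6 held 24.9% of the wild type intensity and Line 3 held 11.8%. The differences were -1.99 and -3.05, or 3.98-fold and 8.30-fold lower, at ranks 29 and 19 from the lowest. Lrg1 protein is known to act with endoglin and the receptor ALK1. Acvrl1, the ALK1 gene, read 80.0 in Line 6 and 114 in Line 3, against 645 in wild type, differences of -2.78 and -2.35. Its Line 6 value lay below that array's median and could not be told from background. Eng, the endoglin gene, read 503, 627 and 404 in Line 6, Line 3 and wild type, and its differences of 0.30 and 0.61 were inside 2-fold.

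Saa3 read 57.1 in Line 6 and 39.7 in Line 3, against 66.7 in wild type. All 3 values lay below the medians of their arrays, and without detection calls they could not be told from background. The differences of -0.18 and -0.57 were under 2-fold. The paralogs Saa1, Saa2 and Saa4 also lay below the median on all 3 arrays, with Saa1 at 19.2 in Line 6, 16.1 in Line 3 and 3.60 in wild type. No serum amyloid A gene was therefore measured above the filter in these cells.

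Pglyrp1 read 7354 in Line 6 and 5467 in Line 3, against 12373 in wild type, at 59.4% and 44.2% of wild type. The difference was -0.75 in Line 6, under 2-fold, and -1.18 in Line 3, 2.26-fold lower. Centring each array on its median moved the Line 6 value to -0.99, still inside 2-fold. Pglyrp1 protein can bind TREM1, an activating receptor of neutrophils and monocytes. Trem1 read 294 in Line 6 and 126 in Line 3, against 1352 in wild type, which are differences of -2.14 and -3.27. Of the related genes, Pglyrp2 read 173, 226 and 111 in Line 6, Line 3 and wild type.

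Bst1 read 588 in Line 6 and 111 in Line 3 on its brighter probe set, against 2207 in wild type. The dimmer probe set read 301 in Line 6, 86.9 in Line 3 and 853 in wild type. Both probe sets put the arrays in the same order, with Line 3 near or below the array median. The brighter one gave differences of -1.88 in Line 6 and -4.13 in Line 3, the Line 3 value at rank 2 from the lowest of 10864 genes. The dimmer one gave -1.45 and -3.08. In Line 3 the brighter probe set held 5.01% of the wild type intensity. The Line 3 value of the dimmer one lay below that array's median of 99.0 and could not be told from background, so its differences involving Line 3 describe the deposited values only.

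All 6 genes were also lower in Line 3 than in Line 6, most of them by little. Bst1 was 4.77-fold lower on the brighter probe set and 3.08-fold lower on the dimmer one, differences of -2.25 and -1.62. Lrg1 was 2.08-fold lower, at -1.06, and lay inside 2-fold after centring on array medians (-0.86) and with a pseudocount of 64 (-0.999). Orm1 (-0.34), Hp (-0.26), Pglyrp1 (-0.43) and Saa3 (-0.39) lay inside 2-fold. So 2 of the 6 genes were counted as lower, against 1.58% of all genes. The median of the 6 was -0.41, and that of all genes was 0.05.

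B and T cell markers were mostly lower in Line 3 than in Line 6, as Bst1 was. Of 14 such markers that passed the filter, 13 were lower in Line 3 than in Line 6, against 43.5% of all genes. By 2-fold or more, 7 of the 14 were lower, against 1.58% of all genes, and the list median was -0.98. The summed intensity of the markers was 11845 in Line 6, 4758 in Line 3 and 4584 in wild type. The sum was lowest in wild type. Pax5, the factor that commits cells to the B lineage, read 73.4 in Line 3 and 610 in Line 6. The Pax5 value in Line 3 lay below that array's median. Vpreb1, a surrogate light chain gene of B precursors, read 521 in Line 3 and 3303 in Line 6. No marker of that list was at 0 on any array. Against wild type, 6 of the 14 genes were 2-fold higher in Line 6, against 2.57% of all genes, and the list median was 0.70. In Line 3, 9 of the 14 lay below wild type, with a median of -0.20. At 2-fold 0 of the 14 were lower in either line, where 2.41% of all genes were lower in Line 6 and 4.46% in Line 3. Stromal and endothelial markers, another known site of Bst1, were higher, and the medians over 9 measured genes were 0.68 in Line 6 and 0.90 in Line 3. Their summed intensity over 15 genes was 6064 in Line 6, 6997 in Line 3 and 3683 in wild type. Vcam1, also on the macrophage list, made 2852, 3465 and 1636 of these sums, and 6 of the 15 failed the filter. At 2-fold 0 of the 9 were lower in either line, and beside the shares of all genes nothing is read from either count of 0. The part of B cells or stroma in the Bst1 differences, between the lines or from wild type, was not tested.

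Neutrophil markers were lower on the same arrays as the 6 genes. All 18 that were measured lay below wild type in both lines, 14 of them 2-fold or more in both, against 30.6% and 2.07% of all genes, and the list medians were -1.36 for Line 6 and -2.69 for Line 3. The same medians over all genes were 0.06 and 0.12. The summed intensity of the list was 78604 in Line 6, 58586 in Line 3 and 124873 in wild type, and no marker was at 0. S100a8 and S100a9, the genes of calprotectin, lay inside 2-fold, at -0.18 in Line 6 and -0.45 in Line 3 for S100a8 and -0.04 and -0.25 for S100a9. The wild type value of S100a8, 25535, was the maximum of that array. Whether differences so near the top of the scale are understated was not tested. In bulk RNA, fewer cells of a type and less RNA per cell cannot be told apart. The part of neutrophil content in the values of the 6 genes was not tested.

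Genes of neutrophil granules were read by class of granule. Specific and gelatinase granules form late in neutrophil maturation, azurophil granules early. Of 18 genes of specific and gelatinase granules, 17 lay below wild type in both lines and 6 were 2-fold lower in both, against 30.6% and 2.07% of all genes, and their medians were -0.83 for Line 6 and -1.33 for Line 3. The 6 were Mmp8, Mmp9, Cd177, Itgb2l, Olfm4 and Adam8, and 3 of them are also on the neutrophil list. Cd177, a surface protein of neutrophils, read 4024 in Line 6 and 2075 in Line 3, against 10596 in wild type. Among the brightest, Camp (-0.54 in Line 6 and -0.87 in Line 3) and Ngp (-0.27 and -0.58) stayed inside 2-fold, and Ltf, the lactoferrin gene, gave -0.81 and -1.12. Pglyrp1 (-0.75 and -1.18) was close to Ltf, and Hp (-1.10 and -1.36) differed by more than these 3. Of 9 azurophil granule genes, 0 were 2-fold lower or higher in either line, and the medians were -0.05 in Line 6 and 0.10 in Line 3. Over all genes 2.41% were lower and 2.57% higher in Line 6, and 4.46% and 3.57% in Line 3. Beside these shares nothing is read from the count of 0. Mpo, the myeloperoxidase gene, read 15952 in Line 6, 16895 in Line 3 and 15770 in wild type.

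**Figure D2:**
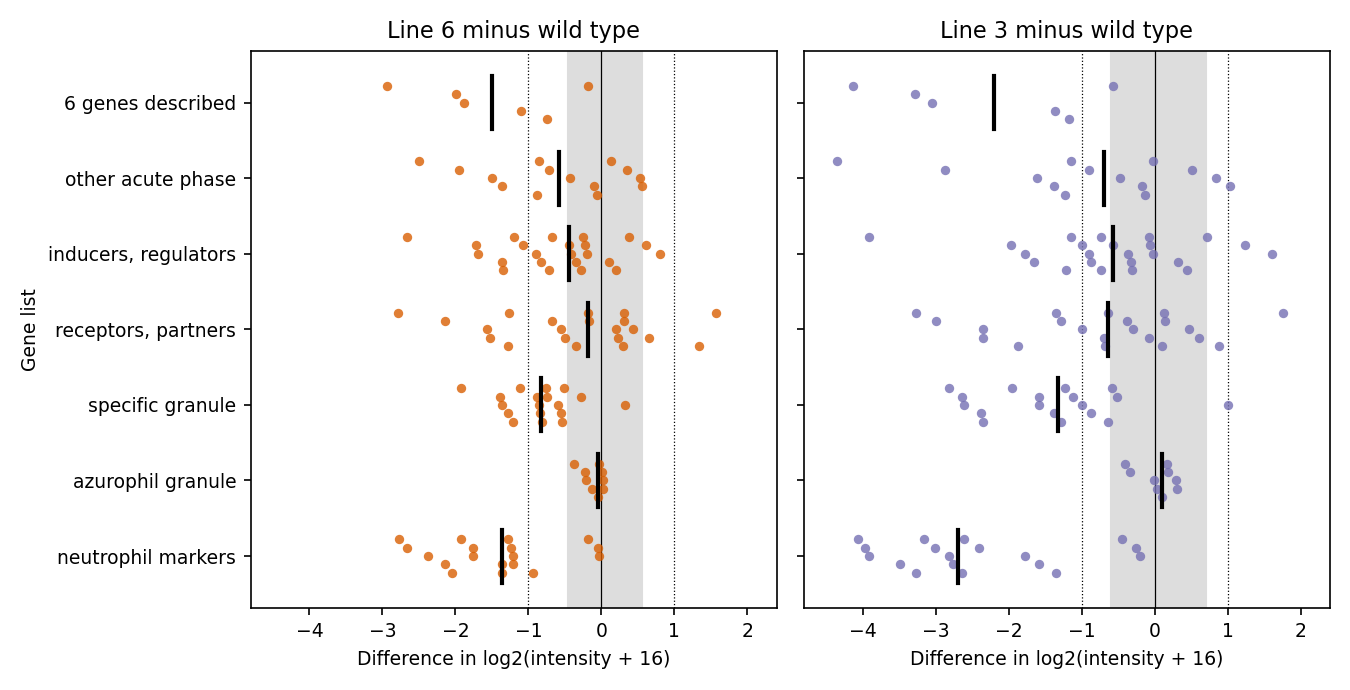
Difference in log2(intensity + 16) from wild type (horizontal) in Line 6 (left) and Line 3 (right) for the 6 genes and the genes of 6 lists that passed the filter (rows), 1 point per gene, with the list's median as a black bar. The grey band spans percentiles 10 to 90 of all genes and dotted lines mark 2-fold; azurophil granule genes lie around 0, with medians of -0.05 and 0.10, while neutrophil markers have medians of -1.36 and -2.69.

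Other acute phase genes were mostly dim. Of 39 listed genes, 35 had a probe set and 14 passed the filter, where 10864 of all 18193 genes passed. The other 21 lay below the median on all 3 arrays, among them Apcs, Crp, Hpx and the fibrinogen genes. In both lines 4 of the 14 were 2-fold lower and 0 were 2-fold higher, against 2.07% and 1.35% of all genes, with list medians of -0.57 for Line 6 and -0.69 for Line 3. Steap4, a metalloreductase gene, read 209 in Line 6 and 26.5 in Line 3, against 848 in wild type. Its Line 3 value lay below that array's median and could not be told from background. Il1rn, the interleukin 1 receptor antagonist gene, read 866 in Line 6, 324 in Line 3 and 2465 in wild type. Steap4 and Il1rn, like Bst1 and Lrg1, were 2-fold lower in Line 3 than in Line 6. Cd14, a co-receptor for lipopolysaccharide (-2.50 and -1.61), and Il18bp, which binds interleukin 18 (-1.36 and -1.15), were the others. Cd14 read 63.7 in Line 6, below that array's median, so that value could not be told from background. Lcn2, an iron-binding granule protein gene, read 7494 in Line 6, 5326 in Line 3 and 13849 in wild type, and passed 2-fold only in Line 3. The iron-storage gene Fth1 (-0.10 and -0.17) and the metallothionein gene Mt1 (-0.05 and 0.84) were inside 2-fold. Mt2, another metallothionein gene, read 1187 in Line 6 and 2238 in Line 3, against 1085 in wild type, and was past 2-fold higher in Line 3 only (0.13 and 1.03).

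Hepatocyte markers were at low intensities. Of 14 with a probe set, 12 lay below the median on all 3 arrays and so failed the filter, which 10864 of all 18193 genes passed. The summed intensity over all 14 was 529 in Line 6, 320 in Line 3 and 522 in wild type. Alb, the albumin gene, read 95.6 in Line 6, 31.0 in Line 3 and 25.6 in wild type. None of the 14 was at 0, but 6, 7 and 6 of them read below 16 on the arrays of Line 6, Line 3 and wild type.

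Genes that induce or carry the acute phase response lay mostly below wild type. Of 28 listed, 23 passed the filter. Of the 23, 17 lay below wild type in both lines, against 30.6% of all genes, and 4 lay above it in both. At 2-fold, 5 were lower in both lines and 0 higher, against 2.07% and 1.35% of all genes. Their medians were -0.44 in Line 6 and -0.57 in Line 3. The 5 were Il1b (-2.66 and -3.91), Tnf (-1.07 and -1.65), the receptor of granulocyte colony-stimulating factor Csf3r (-1.35 and -1.77), the feedback inhibitor of STAT3 Socs3 (-1.72 and -1.96) and the NF-kB cofactor Nfkbiz (-1.35 and -1.15). Tnf read 111 in Line 6 and 69.3 in Line 3, against 252 in wild type. Both line values lay below the medians of their arrays and could not be told from background. Il1b and Csf3r are also neutrophil markers. The interleukin 6 receptor gene Il6ra (-0.35 and -0.31), the transcription factor gene Stat3 (-0.44 and -0.74) and Cebpb (-0.41 and -0.57) were inside 2-fold on their brightest probe sets. Cebpb encodes a C/EBP factor of the acute phase. A dimmer probe set of Cebpb gave -1.17 in Line 6 and -0.71 in Line 3, and a dimmer one of Stat3 gave -0.60 and -1.10. Further probe sets of Stat3 (-0.49 and -0.56) and Il6ra (-0.49 and -0.40) were inside 2-fold. Hnf4a, a liver transcription factor gene, was 2-fold higher in Line 3 alone (0.81 and 1.60), as was Il6, whose values are given at the end. Hnf4a read 99.9 in Line 6, 185 in Line 3 and 50.2 in wild type. Its Line 6 and wild type values lay below the medians of their arrays and could not be told from background. Osm (-1.68 and -0.87) and Il1rap (-1.20 and -0.99) were 2-fold lower in Line 6 alone, and the C/EBP gene Cebpd (-0.90 and -1.21) in Line 3 alone.

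Receptors and partners of the 6 proteins went both ways. Of 21 measured, 6 were 2-fold lower in both lines, 1 was 2-fold higher in both, Cd163, and 14 did not pass in both. Over all genes 2.07% were lower and 1.35% higher in both. Besides Trem1 and Acvrl1, the lower ones were Fpr2, a formyl peptide receptor that binds serum amyloid A (-1.52 in Line 6 and -2.99 in Line 3), Tlr2 (-1.26 and -1.28), the integrin gene Itgam (-1.27 and -1.87) and Siglece, a sialic acid receptor gene (-1.57 and -2.34). The integrin gene Itgb2 (-0.34 and -0.69) was inside 2-fold. Macrophage markers were read beside Cd163. Of 14 measured, 7 were 2-fold higher in both lines, against 1.35% of all genes. Among the 7, Cd5l (65.4), Spic (32.9) and Siglec1 (49.8) read below the median of 96.2 in wild type. They passed the filter only through the lines, where they were high, so nothing is read from that count. At 2-fold 0 of the 14 were lower in either line, where 2.41% of all genes were lower in Line 6 and 4.46% in Line 3. Another 4 of the 14, Csf1r, Cd68, Ccr2 and Fcgr1, had brightest probe sets below wild type in both lines, inside 2-fold. The summed intensity over 15 genes was 18875 in Line 6, 21642 in Line 3 and 16284 in wild type. None of that list was at 0, and its part in the Cd163 difference was not tested.

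Taking these lists of relatives, acute phase genes, regulators, partners and specific granule genes as one, 74 genes passed the filter. Of these, 21 were 2-fold lower in both lines and 1 was 2-fold higher, against 2.07% and 1.35% of all genes, and the medians were -0.54 for Line 6 and -0.71 for Line 3. The 22 genes had 12 further probe sets above the filter, and all 12 lay on the same side of wild type in both lines. The genes were picked for passing 2-fold in both lines, and several of these probe sets passed the filter through wild type only. Nothing is therefore read from that count.

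Likeness to each gene was measured as the distance between differences in the plane of Line 6 and Line 3 minus wild type, over 10388 other genes and 3 arrays. The nearest to Orm1 were Olfml2b (-2.80 in Line 6 and -3.09 in Line 3) and the decoy receptor gene Il1r2 (-2.77 and -3.49), at distances of 0.24 and 0.27. Only 1 gene lay within 0.25 of Orm1, and 2 lay that near to Bst1. These were the stefin gene Stfa2l1 (-1.76 and -3.97) and Steap4 (-1.94 and -4.35). Lrg1 had 6 genes within 0.25, with the lectin receptor gene Clec4e (-2.04 and -3.16) and Cd33 (-1.80 and -3.06) the nearest. Hp had 58, led by Jdp2 and Gsap, and Pglyrp1 had 137, led by Gsn and Sned1. Saa3 had 586, led by Rassf5 and Rhof. With 3 arrays this likeness rests on 2 differences per gene.

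The nearest protein-coding gene on each side of the 6 genes in RefSeq order made 12 neighbours, of which 8 passed the filter, 2 lay below it and 2 had no probe set of their own. Of the 8, 0 were 2-fold lower or higher in both lines, and with 2.07% of all genes lower and 1.35% higher nothing is read from that count. Fbxl5, beside Bst1, came closest, reading 1479 in Line 6 and 743 in Line 3, against 2782 in wild type (-0.90 and -1.88). Sema6b and Plin5 flank Lrg1, and Sema6b gave -0.83 in Line 6 and -0.49 in Line 3, while Plin5 gave -0.37 and -1.04. Plin5 read 81.0 in Line 6 and 44.8 in Line 3, below the medians of these arrays, so both values could not be told from background. Beside Hp, Txnl4b gave -0.90 and -0.53 and Dhodh 0.26 and 0.80. Cd38, the gene beside Bst1 that encodes a related enzyme, is among those not measured.

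Scaling changed the size of these differences but not their side. On the deposited scale the median difference over all genes was 0.06 in Line 6, and centring on array medians moved it to -0.17. The share of lower genes among all those past 2-fold in Line 6 was 48.4% before rescaling, 76.5% with centring, 67.6% with cyclic loess and 66.0% with quantile normalization. Each of the 6 genes lay below wild type in both lines under all of these.

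**Figure D3:**
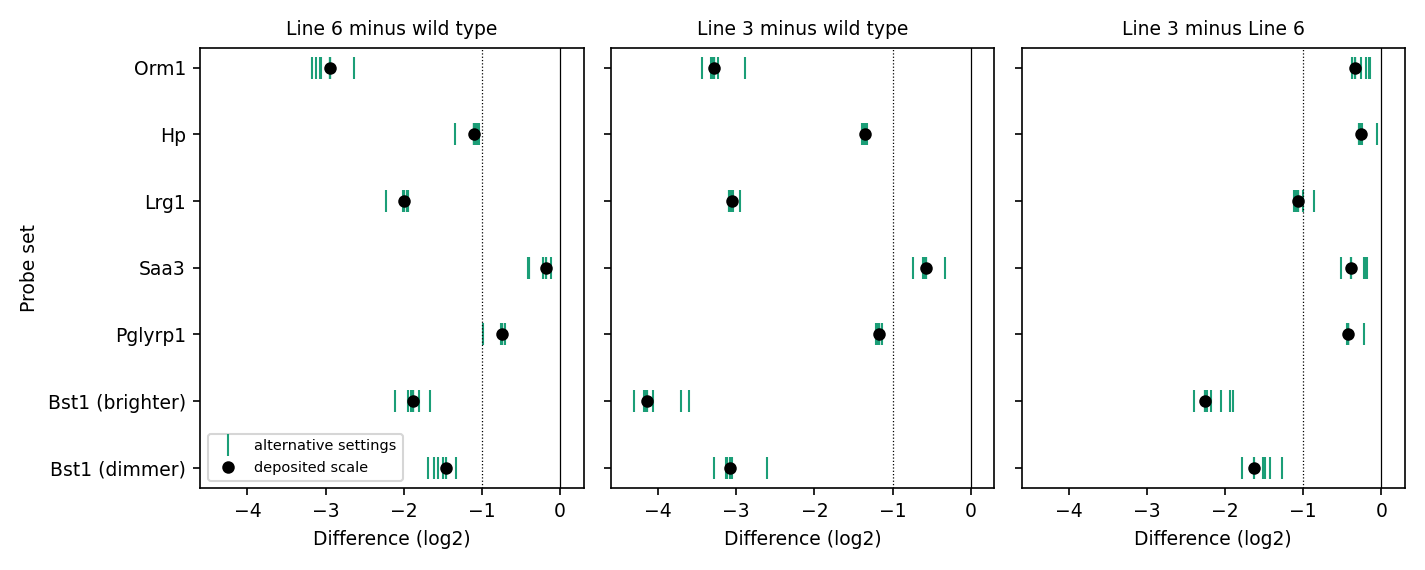
Log2 difference (horizontal) of the 7 probe sets (rows) for Line 6 minus wild type, Line 3 minus wild type and Line 3 minus Line 6; black points are the deposited scale, green ticks the alternative settings and the dotted line is 2-fold lower. All ticks lie below 0, and Bst1 in Line 3 minus wild type spans -4.31 to -3.61 on its brighter probe set.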

How the data were processed

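RNA was extracted with Trizol, amplified, labelled with biotin and hybridised to Affymetrix arrays, per the labels' protocols. The deposited values are intensities on a linear scale, 1 per probe set and array, for 45037 probe sets. How the authors summarised and scaled them is not stated in the labels. The mean after trimming 2% from each end was 497 on each array, so the deposited intensities already shared a scale. Their number limits the precision. Probe sets were paired with genes through the platform annotation (34945 with 1 symbol, 932 with several), and 34741 matched RefSeq names by Entrez identifier (GRCm38.p6).

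Intensities were transformed as log2(intensity + 16), which understates differences of dim genes. Each gene took the values of its brightest probe set by mean log2 value, and 10864 of 18193 genes passed the filter. There was no test, because each genotype had 1 array, so the counts of genes past 2-fold carry no error. The genes and lists were chosen with earlier results of these data known. Besides the 6 genes, the text names listed genes past 2-fold in both lines, up to 4 bright ones per list and the 2 genes nearest to each of the 6. Outside that rule, chosen after their values were seen, are Orm3, Saa1, Saa2, Saa4, Hmox1, Eng, Alb, Hnf4a, Mt2, Cd68, Fcgr1, Il6, Pax5, Osm, Il1rap and Cebpd. So are the chromosomal neighbours, the acute phase genes below the filter and the genes of the label check. The counting was tested on simulated data. Alternatives were 3 scalings, pseudocounts of 1 and 64, other probe set rules, limits of 1.5-fold and 3-fold and, for the lists, other filters. The tools were statsmodels 0.14.6, matplotlib 3.10.9, scipy 1.17.1, pandas 2.3.3 and numpy 2.4.6 under Python 3.11.15.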

Additional observations from a re-analysis of the deposited data

Results flagged for a closer look

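Il6, the interleukin 6 gene and an inducer of the acute phase response, lay on opposite sides of wild type in Line 6 and Line 3. Its intensity was 62.8 in Line 6 and 289 in Line 3, against 114 in wild type, which gives differences of -0.72 and 1.24. The Line 6 value lay below that array's median of 116 and could not be told from background. With a single array per line, this gap was not tested.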

How the results depend on the processing

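No paired analysis was possible because each genotype had 1 array, and no replicate could be left out. Of 180 differences of the 6 genes listed under the alternatives, all 180 lay below 0. Of these, 172 stayed on the same side of the fold limit, 7 no longer passed it and 1 newly passed it. Many of the 180 only repeat the main value. Fold limits leave a difference unchanged, and so do the probe set rules for a gene with 1 probe set. Those repeats are no separate check of the side on which a gene lay. The count of the 6 genes lower in Line 6 than in wild type was 4 and ran from 3 to 5. In Line 3 it was 5, and 3 with a 3-fold limit. Between Line 3 and Line 6 it was 2, and 1 after centring on array medians, with a pseudocount of 64 and with a 3-fold limit. Of the related genes, 33 were lower and 3 higher in both lines at 1.5-fold, and 7 and 0 at 3-fold, where 5.40% and 0.488% of all genes were lower in both. Saa3 has no plain _at probe set, so it has no value under that rule. Without detection calls, values near the array medians may hold background.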
